A study of Mus musculus with 30 samples.

Results

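Extracellular matrix is cut and stabilised by secreted and membrane-bound enzymes and by the inhibitors that hold them in check, and 9 genes of this system were followed through 3 mouse colon systems. The genes were chosen by name, as a list of matrix proteases (Mmp2, Mmp14, Adamts15), metalloproteinase inhibitors (Timp1, Timp2, Timp3), the urokinase protease and its receptor (Plau, Plaur) and the matrix glycoprotein gene Ltbp2. They are 9 of 13456 genes listed in at least 1 of the 7 deposited tables, each of which holds the 6 libraries of 1 comparison. All 9 were listed in the cultured colonocytes, 6 in the colonoids (not Mmp2, Timp1 or Ltbp2) and 4 in colon epithelium (Mmp14, Adamts15, Timp2 and Plaur). The remaining members were not listed there and were not analysed in those systems.

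The study sequenced mRNA from 30 libraries in 10 groups of 3. Colon epithelium came from C57BL/6J mice, either Smad4+ controls or a Smad4 knockout that the submitters call Smad4ΔLrig1; age, sex and, beyond that name, the driver of the deletion are not stated in the labels. The cultured colonocytes, labelled IMCfl/fl Smad4+, were left untreated or received TNF, TGFB1 with BMP2, or all 3 ligands; doses and times are not given. The series description calls the 3 replicates of each condition biological without saying what separates them, so p-values measure the spread between these libraries, which may be partly technical. Colonoids (organoid cultures of colon epithelium) of lines L42, L43 and L46 received vehicle, TNF at 100 ng/mL, a pair of ligands (TGFB1 at 3 ng/mL and BMP2 at 10 ng/mL), or all 3 of these; strain, genotype and treatment time are not given. TGFB and BMP receptors phosphorylate SMAD proteins that join SMAD4 and enter the nucleus, and TNF signals mainly through NF-kB and AP-1.

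Values are CPM (read counts per M reads) as deposited, scaled by the authors to an effective library size within each table. Recovered reads per library numbered 42.23 to 61.72 M for colonoids, 21.63 to 42.87 M for colonocytes and 23.17 to 28.63 M for the tissue. Smad4 checks the knockout label: control libraries held 132, 148 and 152 CPM and knockout libraries 47.8, 59.2 and 46.1 CPM, a log2 change of -1.49 ± 0.12 (SE; limma, adjusted p = 7.01e-05). The label colonocytes was checked against 10 epithelial markers. Only Krt8, Krt18 and Krt19 were listed in the table of TGFB1 and BMP2 against untreated cultures, summing to 33.8 to 45.9 CPM in untreated libraries, and Epcam, Cdh1, Vil1, Cdx1, Cdx2, Krt20 and Lgals4 were not listed. Of 16 stromal and muscle markers, 13 were listed there (Vim, Col1a1, Col3a1 and Acta2 among them), summing to 7954 to 8717 CPM. Not all were high: Pdgfra, Pdgfrb, Des and Fbln1 had untreated means of 1.93 to 3.91 CPM, and Lum, Myh11 and Thy1 were not listed. The data thus go against an epithelial label for these cultures, and they are called colonocyte cultures only as the submitters do. Colon epithelium and colonoids listed all 10 epithelial markers (15054 to 15937 CPM in control colon and 9156 to 11022 CPM in vehicle colonoids) and 4 of the 16 stromal ones (38.8 to 42.7 and 24.3 to 63.8 CPM).

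As background, MMP14 is a collagenase anchored in the plasma membrane. With TIMP2 as an adaptor it activates secreted pro-MMP2, a gelatinase, so that TIMP2 both inhibits metalloproteinases and takes part in activating this one. TIMP1 is a soluble inhibitor, while TIMP3 binds to the matrix and also inhibits members of the ADAM and ADAMTS families. ADAMTS15 is a secreted protease of matrix proteoglycans. Urokinase, encoded by Plau, cuts plasminogen to plasmin, and its receptor, encoded by Plaur, holds it at the cell surface. LTBP2 belongs to the family of latent TGFB binding proteins but, unlike its relatives, is not known to bind latent TGFB, and it associates with fibrillin microfibrils.

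The 200 bases that lie 250 to 51 bases before the annotated start are shown for Mmp14, Timp3 and Plaur, the members called higher with TGFB1 and BMP2 in both culture systems, and for Ltbp2, which rose over 4-fold in the colonocyte cultures. They come from RefSeq promoters on GRCm38.p6 (mm10), where 6 of the 9 members matched (not Mmp2, Adamts15 and Plau). Each reads 5′ to 3′ on the strand of its gene, and capitals mark motif matches.
Mmp14 (chr14:54431348-54431547, plus strand): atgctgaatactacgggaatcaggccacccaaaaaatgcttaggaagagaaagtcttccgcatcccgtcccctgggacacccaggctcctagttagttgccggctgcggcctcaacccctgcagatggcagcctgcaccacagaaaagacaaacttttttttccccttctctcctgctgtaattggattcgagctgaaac
Timp3 (chr10:86300162-86300361, plus strand): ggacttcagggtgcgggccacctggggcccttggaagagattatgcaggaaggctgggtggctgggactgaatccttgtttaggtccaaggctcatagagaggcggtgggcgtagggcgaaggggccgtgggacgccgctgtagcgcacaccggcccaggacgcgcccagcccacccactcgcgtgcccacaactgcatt
Plaur (chr7:24462233-24462432, plus strand): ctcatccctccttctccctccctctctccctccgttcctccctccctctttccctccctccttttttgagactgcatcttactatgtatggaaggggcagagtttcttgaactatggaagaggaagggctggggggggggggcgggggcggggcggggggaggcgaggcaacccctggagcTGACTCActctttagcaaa
Ltbp2 (chr12:84876542-84876741, minus strand): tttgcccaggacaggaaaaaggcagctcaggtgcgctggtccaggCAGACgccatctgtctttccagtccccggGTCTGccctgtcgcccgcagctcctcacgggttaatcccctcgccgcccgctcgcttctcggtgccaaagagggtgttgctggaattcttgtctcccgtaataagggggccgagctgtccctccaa
The motifs searched on both strands were an AP-1 element (TGANTCA), a short SMAD box (CAGAC), a GC-rich SMAD motif (GGCGCC) and an NF-kB element, none of which contains another. Plaur held 1 AP-1 match, which begins 69 bases before the start; 5.57% of 32851 promoters hold that motif in the same 200 bases. Ltbp2 held 2 SMAD box matches, at 205 bases on the forward strand and 176 bases on the reverse strand, and 35.8% of promoters hold at least 1. The letters of these motifs were not found in the Mmp14 and Timp3 windows. Matches describe the sequence and were not tested as binding sites.

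In the colonocyte cultures TGFB1 with BMP2 raised both metalloproteinases of the activation pair and the ADAMTS protease. The inhibitors Timp1 and Timp3, the urokinase receptor and Ltbp2 also rose, and Timp2 fell. Urokinase rose slightly, and its call was lost in most runs that left out 1 library. All 9 members passed the test, 8 higher and 1 lower (limma on log2(CPM + 1), Benjamini-Hochberg adjusted p under 0.05), where 30.2% of the 11620 genes tested did so (15.9% higher). Adamts15 was listed only through its treated libraries, as its untreated values lay under the listing level of 1.25 CPM. Its place in this count and in the median is thus no separate support. The median log2 change was 0.89 over the members and -0.0033 over all genes tested. As in every bulk comparison here, less RNA per cell and fewer cells of a type cannot be told apart. With total reads as the scaling, 1228 genes were higher and 2896 lower, against 1848 and 1665; all members kept their direction under it, and 8 of 9 kept the call.

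Mmp14 (chromosome 14, 54431612 to 54445364, plus strand; all gene positions are from GENCODE vM21 on mm10) held 447, 429 and 436 CPM in untreated cultures and 1268.5, 1197 and 1201 CPM with TGFB1 and BMP2. The 3 treated libraries lay far above the untreated ones, a log2 change of 1.48 ± 0.04 (SE, 3 against 3; adjusted p = 1.23e-10). Mmp2 (chromosome 8, 92827291 to 92853420, plus strand) stood at 28.0, 27.4 and 27.4 CPM untreated and 56.7, 55.0 and 53.2 CPM treated. The gene rose by 0.97 ± 0.06 (adjusted p = 6.58e-08), with no overlap between groups.

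Adamts15 (chromosome 9, 30899155 to 30922452, minus strand) was close to absent from untreated cultures, at 0.334, 0.251 and 0.359 CPM, which rest on 13, 9 and 8 recovered reads. With TGFB1 and BMP2 it held 7.98, 6.77 and 9.46 CPM, from 331, 268 and 229 reads. The ratio of the mean CPM values was 25.6, and the log2 change of (CPM + 1), which understates a change of so low a gene, was 2.78 ± 0.14 (adjusted p = 7.41e-09). The authors' deposited table gives a log2 fold change of 4.68 for Adamts15.

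Among the inhibitors, Timp1 (chromosome X, 20870166 to 20874735, plus strand) rose from 123, 131 and 154 CPM to 253, 262 and 240 CPM, a log2 change of 0.89 ± 0.07 (adjusted p = 6.21e-07). Timp3 (chromosome 10, 86300372 to 86349506, plus strand) rose from 2087, 2056 and 2233 CPM to 3244.5, 3174 and 3059.5 CPM, a log2 change of 0.57 ± 0.05 (adjusted p = 1.36e-06). Timp2 (chromosome 11, 118301069 to 118355740, minus strand) moved the other way, from 1190.2, 1183 and 1074 CPM to 948, 942 and 872 CPM. Its log2 change was -0.32 ± 0.05 (adjusted p = 0.000482), and each treated library lay below each untreated one. Timp1 lies inside Syn1 and Timp3 inside Syn3, each on the opposite strand, and the labels do not say whether reads were counted by strand; Syn1 stood at 5.33 to 6.70 CPM in these libraries and Syn3 was not listed. Cep295nl, which lies within the span of Timp2 on the same strand, was not listed either.

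In the plasminogen system, Plaur (chromosome 7, 24462484 to 24475968, plus strand) rose from 92.1, 81.6 and 85.6 CPM to 157, 145 and 151 CPM, a log2 change of 0.80 ± 0.06 (adjusted p = 2.29e-07). Plau (chromosome 14, 20836660 to 20843385, plus strand) moved little, from 31.8, 35.3 and 29.0 CPM to 35.6, 39.5 and 37.9 CPM. Its log2 change was 0.23 ± 0.08 (adjusted p = 0.0416). The highest untreated library lay just under the lowest treated one, and the call was lost with total reads as the scaling (adjusted p = 0.17) and without any 1 of 5 libraries (all but untreated 2; adjusted p from 0.0510 to 0.141).

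Ltbp2 (chromosome 12, 84783212 to 84876532, minus strand) went from 18.5, 18.6 and 20.1 CPM to 91.9, 82.2 and 82.9 CPM. This was a log2 change of 2.11 ± 0.07 (adjusted p = 1.61e-10), or 4.49 times the untreated mean, and the groups were far apart.

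The response had the same shape where TNF was present in both arms. All 9 members again passed the test, 8 higher and 1 lower, against 31.9% of 11567 genes (16.4% higher), with a median log2 change of 0.91 over the members and -0.0084 over all genes. Adamts15 was again listed only through the libraries given TGFB1 and BMP2. With total reads as the scaling, 1268 genes were higher and 3065 lower, against 1892 and 1802.

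With TNF alone Mmp14 stood at 412, 414 and 424 CPM, and with all 3 ligands at 1186, 1154 and 1123 CPM, a log2 change of 1.47 ± 0.04 (adjusted p = 2.79e-10). Adamts15 went from 0.172, 0.182 and 0.463 CPM to 4.34, 5.29 and 8.00 CPM, a log2 change of 2.41 ± 0.19 (adjusted p = 9.47e-07). Ltbp2 went from 22.4, 23.2 and 29.9 CPM to 101, 116 and 103 CPM, a log2 change of 2.05 ± 0.10 (adjusted p = 1.48e-08). The groups of Mmp14 and of Ltbp2 did not overlap. Nor did those of Adamts15, but that gene was listed only through its treated libraries. The share of all genes without overlap was not counted.

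Plau showed a clear rise in this setting, from 32.7, 34.1 and 33.8 CPM to 51.7, 53.5 and 47.2 CPM (log2 change 0.58 ± 0.06, adjusted p = 1.53e-05), and Timp1 rose from 154, 158 and 162 CPM to 355, 361 and 295 CPM (1.09 ± 0.07, adjusted p = 1.52e-07). Mmp2 rose by 0.91 ± 0.07, Plaur by 0.73 ± 0.06 and Timp3 by 0.54 ± 0.06, while Timp2 changed by -0.33 ± 0.05 (limma, adjusted p from 5.08e-07 to 0.000621).

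**Figure D1:**
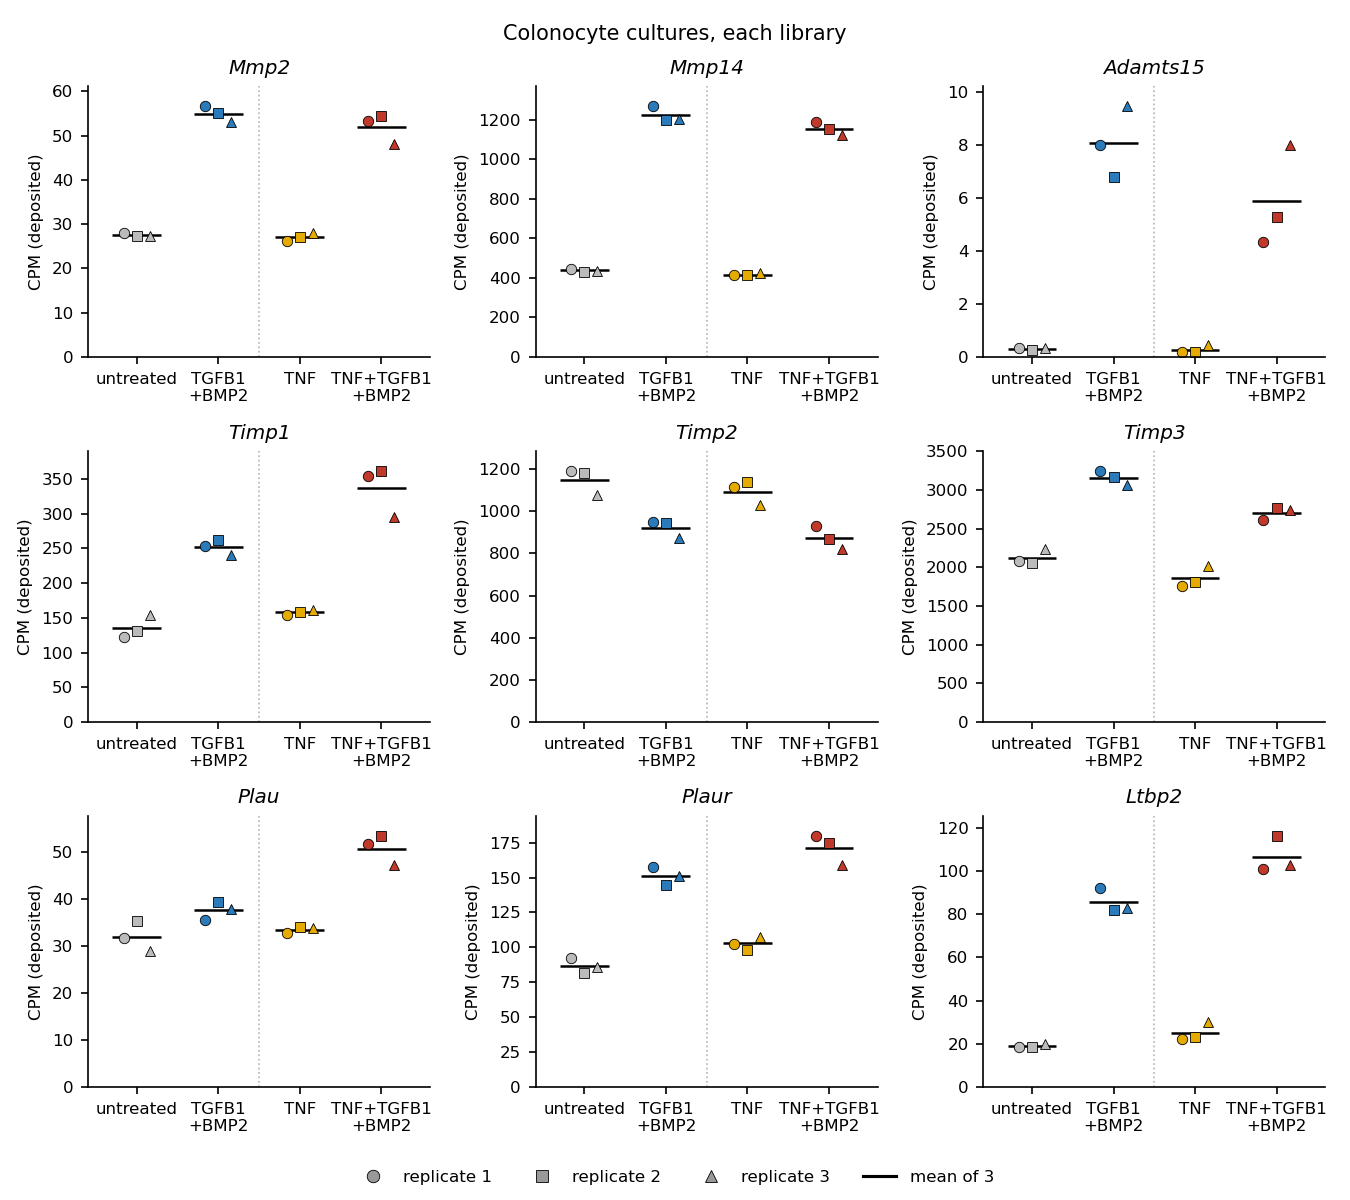
CPM as deposited of each member in each colonocyte library, by treatment; points are libraries, bars are means of 3, and the dotted line parts the tables normalized separately. Mmp14, Adamts15 and Ltbp2 stand far higher in both groups given TGFB1 and BMP2 (Mmp14 at 1123 to 1268.5 CPM against 412 to 447 CPM), and Timp2 stands lower.

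TNF alone moved few members in the colonocyte cultures. Of the 8 listed members, Plaur and Ltbp2 were higher and none lower, 2 of 8 against 6.28% of 11586 genes (4.61% higher); Adamts15 was not listed in that table. The median log2 change was 0.05 over the members and -0.0031 over all genes.

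Plaur held 93.6, 83.0 and 87.4 CPM untreated and 107, 102 and 112 CPM with TNF, a log2 change of 0.28 ± 0.06 (adjusted p = 0.0127). Ltbp2 held 18.8, 18.9 and 20.5 CPM untreated and 23.4, 24.1 and 31.1 CPM with TNF, a log2 change of 0.40 ± 0.10 (adjusted p = 0.041), with the third TNF library apart from the others. Leaving out 1 library at a time ended the Ltbp2 call for 4 of the 6 libraries (untreated 1 and 2, TNF 2 and 3; adjusted p from 0.0678 to 0.161) and the Plaur call for untreated 2 and TNF 1 (0.0794 and 0.0597).

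Timp1 held 125, 133 and 157 CPM untreated and 160.1, 164 and 168 CPM with TNF, so the groups did not overlap, but its log2 change of 0.25 ± 0.07 missed the threshold (adjusted p = 0.069). Timp3 held 2121, 2092 and 2279 CPM and then 1837, 1880.0 and 2106 CPM, a log2 change of -0.16 ± 0.06 (adjusted p = 0.151). Same-numbered untreated and TNF libraries deviated together, though untreated 2 did so nearly as much with TNF 1 (r 0.227) as with TNF 2 (0.273). With the replicate block Timp1 (adjusted p = 4.28e-09) and Timp3 (7.75e-06) passed as well, for 4 members called. Over all genes the block took the count from 728 to 2356. Timp1 also passed under DESeq2 (adjusted p = 0.0235) and without untreated 3 (0.000513), and Timp3 without TNF 3 (0.0207). The authors' deposited FDR was 0.0189 for Timp1 and 0.1315 for Timp3. The log2 changes of Mmp2, Mmp14, Timp2 and Plau lay between -0.04 and 0.10 and did not pass.

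TNF added to TGFB1 and BMP2 was tested over the 12 colonocyte libraries on reads recovered from the tables and normalized together. Timp1, Plau and Ltbp2 were higher, 3 of 8 members against 4.13% of 11434 genes (3.07% higher, 1.06% lower), and none was lower. Plau stood at 35.4, 39.2 and 37.4 CPM with TGFB1 and BMP2 and at 52.3, 54.0 and 47.7 CPM with all 3 ligands on this joint scale, a log2 change of 0.45 ± 0.07 (limma, adjusted p = 0.000733). Timp1 stood at 252, 260.4 and 237 CPM and then 359, 365 and 299 CPM (0.44 ± 0.08, adjusted p = 0.00243), with each library with TNF above each without. Ltbp2 stood at 91.5, 81.6 and 81.9 CPM and then 102, 117 and 104 CPM (0.34 ± 0.09, adjusted p = 0.0438), a call lost under total-read scaling (0.0637) and without any 1 of 8 libraries (untreated 1 and 2 and all 6 given TGFB1 and BMP2; 0.0545 to 0.234).

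Plaur (0.20 ± 0.06, adjusted p = 0.0571) and Timp3 (-0.20 ± 0.05, adjusted p = 0.0509) lay just outside the threshold. Both passed with the replicate block, by which these libraries were taken to pair (0.00558 and 0.00469), and under edgeR (0.0491 and 0.0406). Adamts15, tested over the genes of the TGFB1 and BMP2 tables alone in a fit chosen after seeing the data, stood at 7.94, 6.72 and 9.33 CPM without TNF and 4.38, 5.34 and 8.08 CPM with it on the joint scale, with overlapping groups. Its log2 change was -0.40 (95% interval -0.76 to -0.04, limma, adjusted p = 0.271; 4.14% of 11502 genes passed, and 0.00869% in the interaction of that fit).

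No member passed the test of the interaction, which asks whether TGFB1 and BMP2 acted differently with TNF present (limma, 0 of 8 members and 1 of 11434 genes, 0.00875%). Plau had the largest value among the members, 0.35 (95% interval 0.14 to 0.56), at an unadjusted p of 0.00293 and an adjusted p of 0.948. No other member had an unadjusted p under 0.05, and edgeR called 0 members too. The share of all genes under that unadjusted level was not counted.

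In colonoids TGFB1 with BMP2 raised Mmp14, Timp3 and Plaur and lowered Adamts15. These 4 of the 6 listed members were called (3 higher, 1 lower), where 56.7% of 11633 genes tested passed (28.0% higher, 28.7% lower), so their share lies near that of all genes. The median log2 change was 0.81 over the members and -0.0154 over all genes. Total-read scaling shifted the median log2 change of all genes by -0.26 and gave 1996 genes higher and 5010 lower, against 3262 and 3334. All 4 called members kept their direction and their call under it.

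Timp3 showed the largest change of any member in this system. It held 18.8, 36.9 and 23.0 CPM in vehicle colonoids of L42, L43 and L46 and 416, 932 and 246 CPM with TGFB1 and BMP2. The lines gave ratios of 22.1, 25.3 and 10.7, and the log2 change was 4.13 ± 0.49 (adjusted p = 0.00192). Syn3, the gene that surrounds Timp3 on the other strand, moved the opposite way (3.36, 2.52 and 2.51 CPM, then 0.860, 0.652 and 1.296 CPM; log2 change -0.98 ± 0.20, adjusted p = 0.00735).

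Mmp14 held 112, 107 and 103 CPM with vehicle and 241, 242 and 173 CPM with TGFB1 and BMP2, a log2 change of 1.00 ± 0.14 (adjusted p = 0.00294). Plaur held 28.6, 20.9 and 30.6 CPM and then 97.0, 93.9 and 63.2 CPM, a log2 change of 1.62 ± 0.21 (adjusted p = 0.00235). In both genes every line rose, and L46 rose least (1.67 times for Mmp14 and 2.06 times for Plaur, against 2.25 times for Mmp14 and 4.50 times for Plaur in L43). The submitters number the libraries of L46 under another prefix than those of L42 and L43, and what the prefix stands for is not given.

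Adamts15 held 12.6, 15.5 and 13.4 CPM with vehicle and 3.22, 4.48 and 10.6 CPM with TGFB1 and BMP2. It was lower in all 3 lines, at 0.255, 0.289 and 0.790 times vehicle in L42, L43 and L46. The log2 change was -1.20 ± 0.36 (adjusted p = 0.0281), and the call was lost under edgeR (0.0568) and without any 1 of 5 libraries (0.0632 to 0.0878), the exception being the treated library of L46.

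Plau held 2.01, 1.37 and 2.25 CPM and then 2.78, 2.43 and 5.48 CPM, a log2 change of 0.62 ± 0.28 (adjusted p = 0.0988). Timp2 held 51.6, 26.3 and 36.8 CPM and then 28.7, 9.68 and 32.9 CPM, a log2 change of -0.78 ± 0.47 (adjusted p = 0.192). Each gene moved the same way in the 3 lines, and with the line as a block both passed (Plau adjusted p = 0.0369, Timp2 0.0414), for 6 members called. Over all 11633 genes tested the block took the count from 6596 to 7223.

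With TNF in both arms, Mmp14, Timp3, Plau and Plaur were called higher and Adamts15 lower, 5 of 6 members against 54.1% of 11595 genes (26.4% higher, 27.7% lower). Here the median log2 change was 1.27 over the members and -0.0255 over all genes; total-read scaling shifted the latter by -0.24 and gave 1912 genes higher and 4879 lower, against 3061 and 3217.

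Timp3 held 22.5, 24.3 and 23.5 CPM with TNF and 298, 551 and 110 CPM with all 3 ligands, a log2 change of 3.43 ± 0.53 (adjusted p = 0.00358). Mmp14 went from 115, 104 and 106 CPM to 357, 376 and 191 CPM (1.44 ± 0.25, adjusted p = 0.00506). Plaur went from 26.0, 22.0 and 29.9 CPM to 93.5, 109 and 67.1 CPM (1.74 ± 0.20, adjusted p = 0.00182). The smallest of the 3 ratios was again that of L46 in each of these genes (4.66 for Timp3, 1.81 for Mmp14 and 2.25 for Plaur).

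Adamts15 fell in all lines, from 13.6, 13.3 and 11.9 CPM to 1.97, 2.58 and 3.48 CPM (log2 change -1.94 ± 0.18, adjusted p = 0.00143), and this call held under every alternative run. Plau went from 2.40, 1.92 and 3.67 CPM to 5.14, 6.33 and 9.39 CPM (1.11 ± 0.26, adjusted p = 0.0128). Timp2 held 64.9, 23.5 and 40.5 CPM and then 37.8, 17.6 and 41.2 CPM, with overlapping groups and a log2 change of -0.38 (95% interval -1.42 to 0.66, adjusted p = 0.481).

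**Figure D2:**
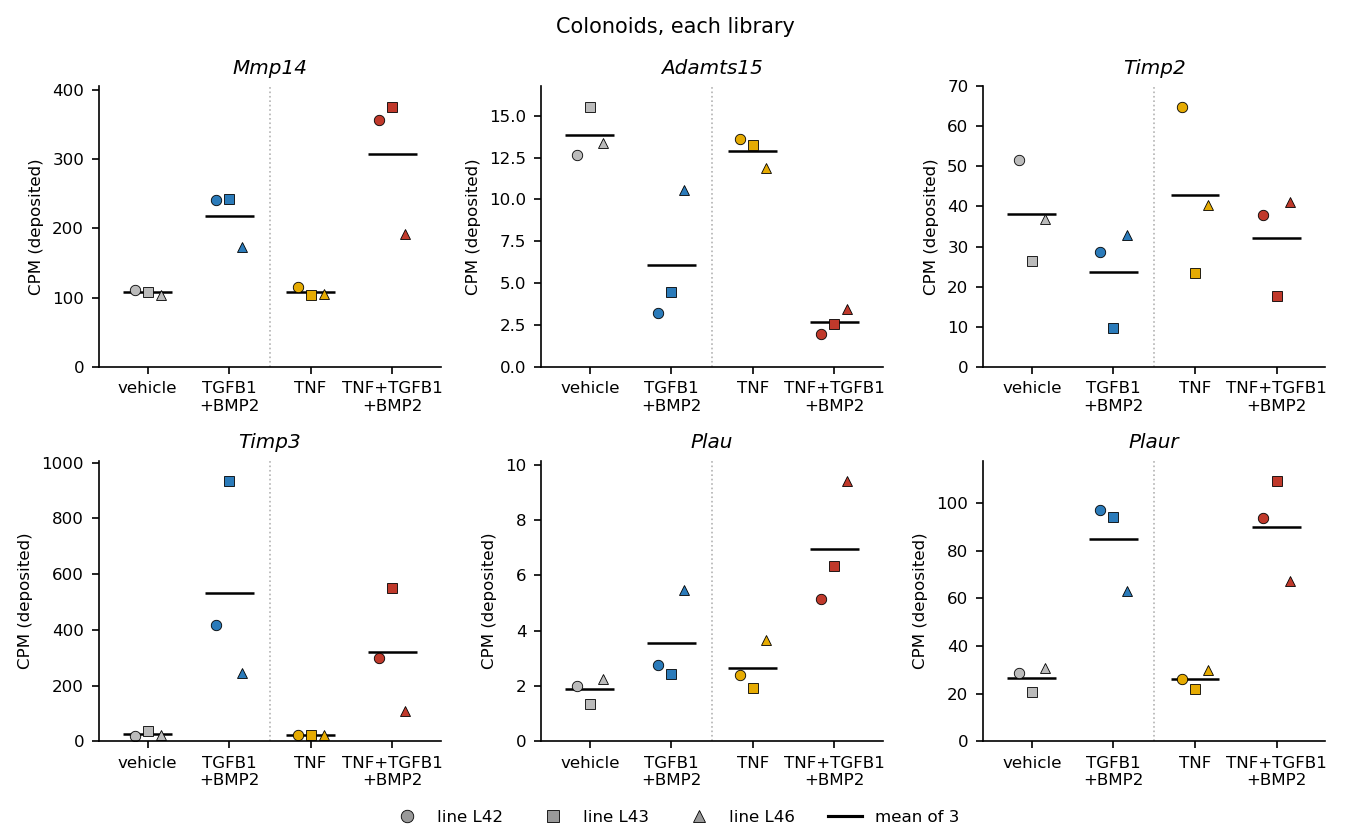
CPM as deposited of the 6 listed members in each colonoid library, by treatment and line; bars are means of 3 and the dotted line parts the tables normalized separately. Timp3 lies at 18.8 to 36.9 CPM without and at 110 to 932 CPM with TGFB1 and BMP2, with L46 lowest, and Adamts15 is lower in each line.

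TNF alone called no member in colonoids (limma, 0 of 6, against 0.137% of 11688 genes, 0.120% higher and 0.0171% lower), with no unadjusted p under 0.05, and edgeR, DESeq2 and the line block called 0 members as well. Over all genes this comparison called 16, 718 with the line as a block, 116 by DESeq2 and 1 to 8 with 1 library left out. Mmp14 held 124, 117 and 113 CPM with vehicle and 126, 114 and 116 CPM with TNF, a log2 change of 0.01 (95% interval -0.15 to 0.18). Plau was higher with TNF in each line (2.23, 1.49 and 2.47 CPM, then 2.63, 2.11 and 4.03 CPM), but its log2 change of 0.34 (-0.19 to 0.87) missed the threshold (unadjusted p = 0.171).

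TNF added to TGFB1 and BMP2 in colonoids likewise called no member over the 12 libraries (limma, 0 of 6, against 0.175% of 11416 genes). By edgeR 0 members were called too. Unadjusted p-values were 0.0139 for Plau and 0.0224 for Adamts15 (limma). The share of all genes under an unadjusted 0.05 was not counted, so these values describe the 2 genes only. Plau stood at 2.77, 2.43 and 5.47 CPM without TNF and at 5.18, 6.41 and 9.44 CPM with it on the joint scale, a log2 change of 0.84 ± 0.28 (adjusted p = 0.523). With the line as a block Plau passed (adjusted p = 0.0247). Adamts15 had a log2 change of -0.82 ± 0.31 (adjusted p = 0.624). The interaction called 0 of 6 members and 0.00% of genes, none of the members had an unadjusted p under 0.05, and edgeR called 0 members.

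**Figure D3:**
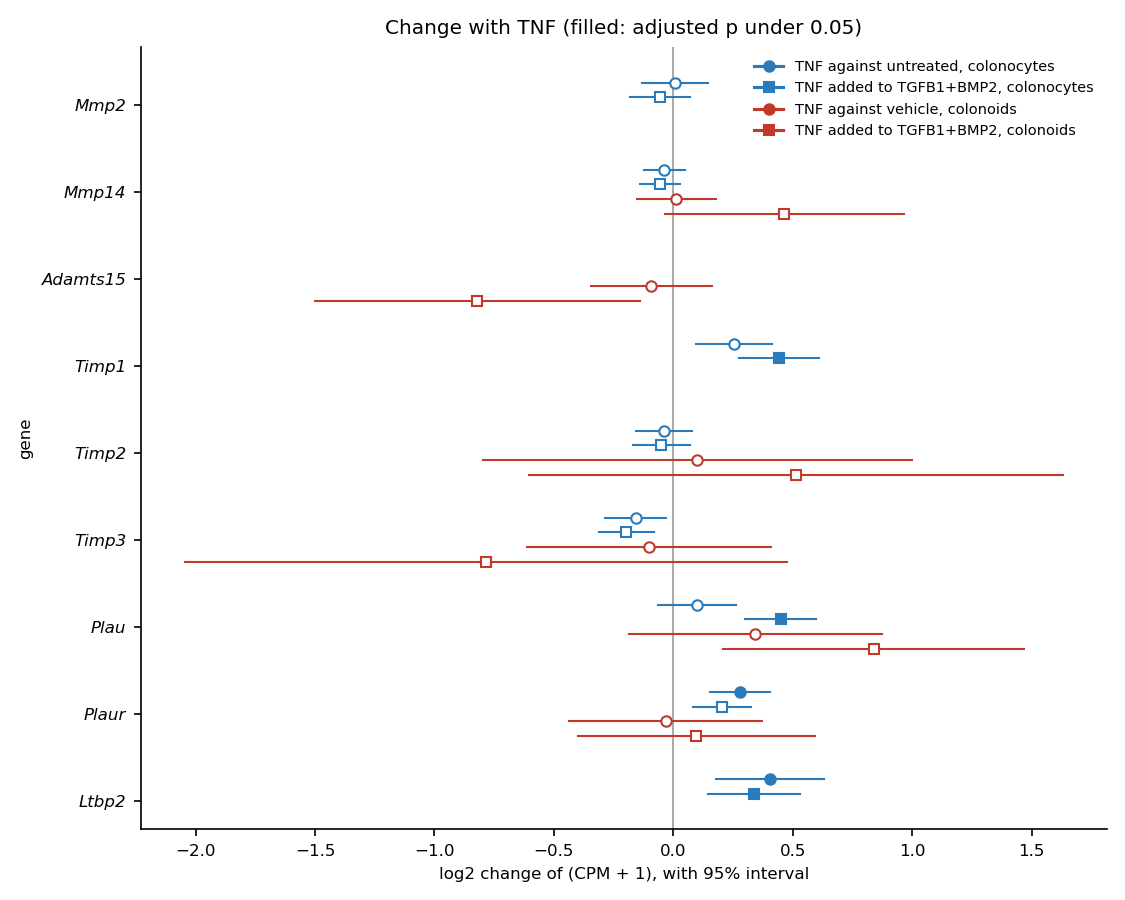
log2 change of (CPM + 1) with TNF for each tested member, with its 95% interval, in colonocytes (blue) and colonoids (red), against untreated or vehicle (circles) and added to TGFB1 and BMP2 (squares); filled symbols passed the threshold, and Adamts15 is not drawn for colonocytes. Filled symbols are the 2 members called with TNF alone and the 3 called on top of TGFB1 and BMP2, all in colonocytes.

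The TGFB1 and BMP2 effects of the systems were also set against each other, colonoids minus colonocytes, on reads normalized together, in a test chosen after seeing the data. The systems differ in cells, and the colonocyte doses and times are not given, so these cannot be told apart from the difference. Without TNF, 4 of 6 members differed, 2 in each direction, against 54.8% of 10359 genes (26.6% higher, 28.3% lower). With TNF 3 of 6 differed against 52.8% of 10315 (25.9% higher, 26.9% lower), and both shares lie near those of all genes. Adamts15 differed most, by -4.03 ± 0.41 (adjusted p = 7.09e-05) and, with TNF, by -4.41 ± 0.29 (1.297e-05), since it rose in colonocytes and fell in colonoids. It was listed in colonocytes only through libraries given TGFB1 and BMP2, so its rise there is no separate support. Timp3 differed by 3.55 ± 0.53 (0.000505) and 2.89 ± 0.58 (0.00232), and Plaur by 0.82 ± 0.23 (0.0124) and 1.01 ± 0.22 (0.00343), both larger in colonoids. Mmp14 differed by -0.49 ± 0.15 without TNF (adjusted p = 0.0204) and by -0.03 with it (95% interval -0.63 to 0.56).

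**Figure D4:**
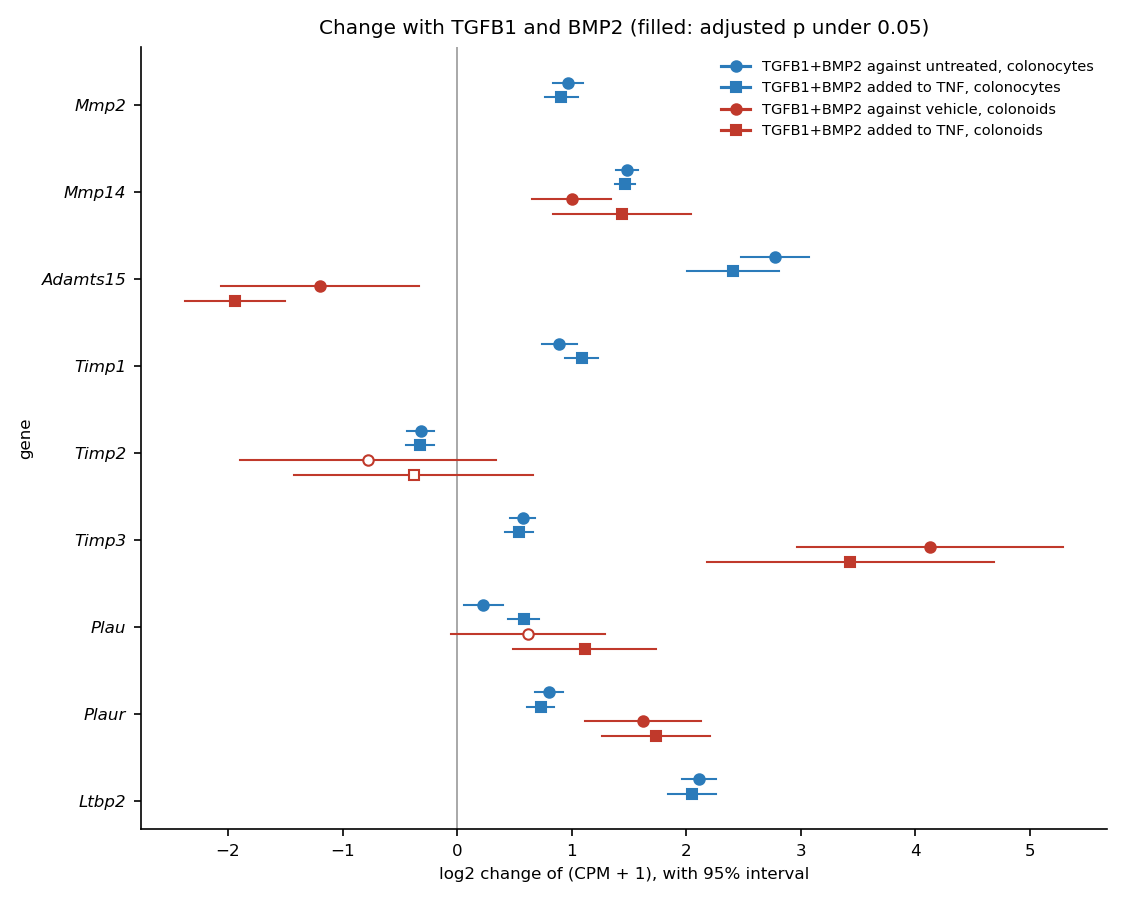
log2 change of (CPM + 1) with TGFB1 and BMP2 for each listed member, with its 95% interval, in colonocytes (blue) and colonoids (red), without TNF (circles) and with TNF in both arms (squares); filled symbols passed the threshold. Adamts15 lies at 2.78 and 2.41 in colonocytes and at -1.20 and -1.94 in colonoids, and Timp3 lies furthest right in colonoids, at 4.13 and 3.43.

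In colon epithelium the Smad4 knockout carried more Adamts15 and Mmp14. Of the 4 listed members these 2 were called, both higher, against 39.7% of 11607 genes tested (19.8% higher, 19.9% lower). The share of members called thus lies near that of all genes. The median log2 change was 0.16 over the members and 0.0020 over all genes. Adamts15 held 13.4, 17.9 and 17.6 CPM in controls and 48.2, 37.1 and 20.6 CPM in knockouts, a log2 change of 1.00 ± 0.26 (adjusted p = 0.0123). The third knockout library lay only just above the controls.

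Mmp14 held 72.9, 70.3 and 65.2 CPM in controls and 107, 87.1 and 81.3 CPM in knockouts, with no overlap and a log2 change of 0.39 ± 0.12 (adjusted p = 0.026). Leaving out 1 library at a time ended the Mmp14 call without control 2 or 3 or knockout 1 or 2 (adjusted p from 0.0537 to 0.0888) and the Adamts15 call without knockout 2 (0.06). Timp2 held 6.20, 9.20 and 9.24 CPM and then 4.52, 4.64 and 8.12 CPM, a log2 change of -0.47 (95% interval -0.96 to 0.02, adjusted p = 0.118). It passed in 1 of the runs that left out a library (limma, adjusted p = 0.0163). Plaur was low in both groups, at 2.56, 3.25 and 2.94 CPM and at 3.90, 2.71 and 1.84 CPM, a log2 change of -0.07 (-0.52 to 0.38, adjusted p = 0.805).

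The 4 listed stromal and muscle markers summed to 38.8 to 42.7 CPM in controls and 34.8 to 50.0 CPM in knockouts, the 8 listed of 14 leukocyte markers to 144 to 169 and 150 to 182 CPM, and the 1 listed of 8 endothelial markers to 1.40 to 2.39 and 1.84 to 3.10 CPM. The defining markers Pecam1, Cdh5, Col1a1, Dcn and Acta2 were not listed. Ptprc (17.4 CPM on average in controls), Cd3e (7.36), Vim (12.6) and Pdgfrb (9.43) were listed. Cd14 alone averaged 92.0 CPM in controls, where the whole leukocyte sum averaged 158 CPM. Epithelial markers summed to 15054 to 15937 CPM in controls and to 11238 to 13961 CPM in knockouts. The part of these sums in the member changes was not tested.

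**Figure D5:**
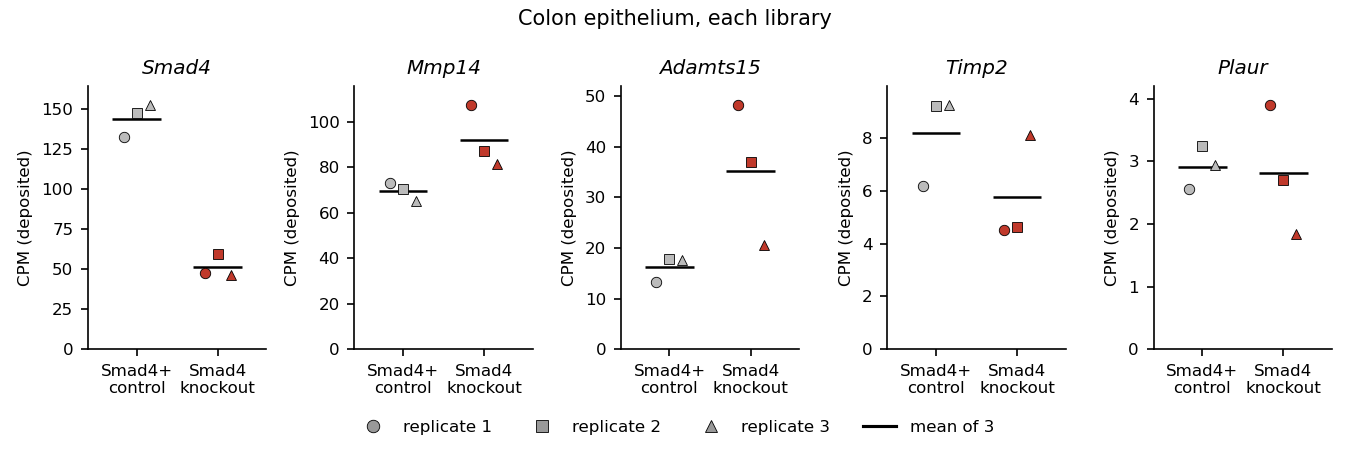
CPM as deposited of Smad4 and the 4 listed members in each colon epithelium library; points are libraries and bars are means of 3. Adamts15 and Mmp14 are higher in knockout libraries, with the third knockout library closest to the controls, and Smad4 is lower.

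Marker sums in the cultures were as follows. In colonocytes the 13 listed stromal markers summed to 7954 to 8717 CPM untreated and 8174 to 8763 CPM with TGFB1 and BMP2. The 3 listed epithelial markers summed to 33.8 to 45.9 and then 27.3 to 30.8 CPM, the 3 listed of 8 endothelial markers to 32.0 to 36.9 and then 41.9 to 45.6 CPM, and the 3 listed of 14 leukocyte markers to 49.7 to 65.3 and then 52.1 to 54.6 CPM. With TNF in both arms the epithelial sum (4 listed) again lay lower with TGFB1 and BMP2 (39.6 to 47.9, then 29.8 to 33.6 CPM) and the endothelial sum higher (34.0 to 35.3, then 40.7 to 43.3 CPM). Pecam1, Cdh5 and Ptprc were not listed in the table of TGFB1 and BMP2 against untreated cultures, and the part of these sums in the colonocyte results was not tested. In colonoids the 10 epithelial markers summed to 9156 to 11022 CPM with vehicle and 25153 to 34094 CPM with TGFB1 and BMP2, and the 4 listed stromal markers to 24.3 to 63.8 and 9.50 to 27.3 CPM. Fbln1 alone averaged 44.7 CPM with vehicle, where the stromal sum averaged 49.9 CPM, and Vim, Dcn and Col3a1 were not listed. The part of the epithelial rise in the colonoid results was not tested.

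Levels of different genes were compared per kilobase of exon, with all annotated exons of a gene merged. In untreated colonocytes the inhibitors led, with Timp2 at 295 ± 17, Timp3 at 261 ± 12 and Timp1 at 153 ± 18 CPM per kb (SD, n = 3). Mmp14 followed at 73.4 ± 1.5, Plaur at 33.0 ± 2.0, Plau at 13.5 ± 1.3, Mmp2 at 8.19 ± 0.11, Ltbp2 at 2.33 ± 0.11 and Adamts15 at 0.0304 ± 0.0054. The ranges of neighbours in this order did not overlap. With TGFB1 and BMP2 the order became Timp3 (388), Timp1 (284), Timp2 (236) and Mmp14 (205), and Mmp2 (16.3 ± 0.5) and Plau (15.9 ± 0.8) overlapped.

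In vehicle colonoids Mmp14 was highest, at 18.0 ± 0.7 CPM per kb, followed by Plaur at 10.2 ± 2.0 and Timp2 at 9.81 ± 3.26, whose ranges overlapped, then Timp3 at 3.22 ± 1.16, Adamts15 at 1.34 ± 0.15 and Plau at 0.793 ± 0.193. With TGFB1 and BMP2 Timp3 had the highest mean, at 65.2 ± 43.9 CPM per kb, although its range of 30.2 to 114 reached into those of Mmp14 (28.9 to 40.7) and Plaur (24.1 to 37.0). In control colon epithelium Mmp14 stood at 11.7 ± 0.7, Timp2 at 2.11 ± 0.45, Adamts15 at 1.57 ± 0.24 and Plaur at 1.12 ± 0.13 CPM per kb, and the ranges of Timp2 and Adamts15 overlapped, as the lowest Timp2 value was 1.59.

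The remaining genes of the same pathways were taken as lists. Among 14 genes of latent TGFB storage and activation, 11 were tested in colonocytes with TGFB1 and BMP2, of which 7 were higher and 2 lower (median log2 change 0.52), where 15.9% of all genes were higher and 14.3% lower (median -0.0033). The TGFB ligand gene Tgfb3 rose most (1.65 ± 0.08, adjusted p = 6.31e-09), and the integrin gene Itgb8 fell most (-1.33 ± 0.20, adjusted p = 0.000192); Ltbp1 and Ltbp3, relatives of Ltbp2, rose by 0.71 and 0.86. In colonoids 6 of 7 tested genes of this list were higher and none lower (median 1.92), where 28.0% of all genes were higher and 28.7% lower (median -0.0154), led by Ltbp1 (2.33 ± 0.49, adjusted p = 0.00867).

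Among 18 other ADAMTS genes, 8 were tested in colonocytes, 2 higher and 3 lower, against the same 30.2% of all genes called, with Adamts6 highest (1.03 ± 0.09, adjusted p = 8.58e-07) and Adamts1 lowest (-1.38 ± 0.06, adjusted p = 3.44e-09). Of 21 other matrix metalloproteinases 8 were tested, and the 3 called are a share near that of all genes, 1 higher (Mmp11, 0.51 ± 0.09, adjusted p = 0.000572) and 2 lower, with the collagenase gene Mmp13 lowest (-1.01 ± 0.22, adjusted p = 0.00346). In colonoids 2 of 4 tested metalloproteinases were higher and none lower, led by Mmp28 (1.57 ± 0.25, adjusted p = 0.00367), a share near the 56.7% of all genes called there, and the 1 ADAMTS gene tested was not called.

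Of 8 other plasminogen activation genes, 6 were tested in each system. In colonocytes 2 were higher, Lrp1 most (0.61 ± 0.07, adjusted p = 1.58e-05), and 1 lower, the tissue plasminogen activator gene Plat (-1.03 ± 0.07, adjusted p = 1.07e-07). In colonoids 4 were higher, Itgav most (2.60 ± 0.18, adjusted p = 0.000974), and 1 lower, Plgrkt (-0.72 ± 0.15, adjusted p = 0.00783). Of all genes 30.2% were called in colonocytes and 56.7% in colonoids.

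In the Smad4 knockout few genes of these lists were tested, and 39.7% of all genes were called (19.8% higher, 19.9% lower). Of 5 plasminogen genes 1 was higher (Itgav, 0.51 ± 0.10) and 1 lower (the receptor gene Lrp1, -1.20 ± 0.14, adjusted p = 0.000375). Of 4 ADAMTS genes 1 was higher (Adamts3, 0.85 ± 0.18) and 1 lower (Adamts13, -0.72 ± 0.15). Of 3 metalloproteinases 1 was lower (Mmp7, -1.49 ± 0.49, adjusted p = 0.0358), and of 4 latent TGFB genes 1 was lower (Thbs1, -0.58 ± 0.18, adjusted p = 0.0259). With TNF alone in colonocytes, where 6.28% of all genes were called, the lowest adjusted p among 9 metalloproteinases was 0.0966 (limma; Mmp15). Of 9 ADAMTS genes 1 was higher (Adamts9, 0.67 ± 0.11, adjusted p = 0.00256) and 1 lower (Adamts5, -0.18 ± 0.05, adjusted p = 0.0427). Of 6 plasminogen genes 2 were higher, S100a10 most (0.24 ± 0.05, adjusted p = 0.00999), and of 11 latent TGFB genes 1 was higher (Tgfb1, 0.39 ± 0.08, adjusted p = 0.0151) and 1 lower (Tgfb3, -0.38 ± 0.09, adjusted p = 0.0271).

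The genes whose log2 levels ran most alike were ranked by Pearson r over the 12 libraries of a system, which share treatments, so that r is a description. In colonocytes Mmp14 ran closest to Pmepa1 (0.998), Smad7 (0.997) and Hbegf (0.997), Ltbp2 to Wisp1 (0.996), Apbb2 (0.994) and Lrrc59 (0.994), and Adamts15 to Epb4.1l3 (0.993), Marcksl1 (0.992) and C030046E11Rik (0.991). In colonoids Mmp14 ran closest to Amigo1 (0.993), Sec14l2 (0.992) and Cdkn1c (0.989), and Adamts15 to Ppargc1a (0.980), Gna14 (0.980) and Adora1 (0.974).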

How the data were processed

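Libraries from 30 mouse RNA samples followed the TruSeq Stranded mRNA protocol, per the labels' protocols. The submitters' processing notes name the build mm10 and, without their roles, edgeR 3.4.2, HTSeq 0.5.4p5, TopHat2 2.1.0, CASAVA, SAMtools 1.3.1 and bcl2fastq 2.16. The library columns the authors deposited hold a signal in CPM on an effective library size, set separately in each of 7 tables, beside the authors' deposited log2 fold change and log2 CPM and the authors' p-value and FDR. Listed genes reached at least 1.25 CPM of total reads in 3 libraries of their table, so lower genes are missing. All values lay within 0.05 of a whole multiple of 1 read (100%), so reads were recovered.

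Samples were grouped by title. The members, lists and tests were chosen with earlier results of these data known. The main test was limma 3.58.1 (R 4.3.3) with a trend on log2(CPM + 1), for genes with a mean of at least 1 CPM, within the 6 libraries of a table, with Benjamini-Hochberg adjustment over all genes tested and a threshold of 0.05. TNF added to TGFB1 and BMP2, the interaction and the difference between systems were fitted on recovered reads after TMM scaling over the genes shared by the tables, with no filter. Alternatives were pseudocounts of 0.1 and 5, no filter, total reads, edgeR 4.0.16 quasi-likelihood, DESeq2 1.42.0, a replicate block and leaving out each library. The scripts were tested on simulated reads. Named genes were the members, Smad4, the called gene of each list with the largest rise and fall, and for likeness the 3 genes with the highest r; Ltbp1, Ltbp3 and the neighbours Syn1 and Syn3 were named after their values were seen. The list of other protease inhibitors is not reported here.

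Replicate numbers were taken to pair libraries where same-numbered libraries deviated together with r over 0.1 in every pair, or where they share a colonoid line. The rule did not ask whether differently numbered libraries deviated together less. In colonocytes TNF 2 had an r of 0.218 with library 1 of all 3 ligands and of 0.161 with library 2. Replicate 3 had the fewest recovered reads of each colonocyte group, 21.6 to 25.2 M against 34.8 to 42.9 M in replicates 1 and 2. The part of depth in the pairing was not tested. The colonoid lines (r 0.271 to 0.940), untreated with TNF (0.273 to 0.526), TNF with all 3 ligands (0.161 to 0.413) and TGFB1 and BMP2 with all 3 (0.211 to 0.426) in colonocytes were paired; untreated with TGFB1 and BMP2 (lowest 0.049) and the knockout (-0.0061 to 0.123) were not.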

Additional observations from a re-analysis of the deposited data

Results flagged for a closer look

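The effect of TGFB1 with BMP2 was compared between colonoids and colonocyte cultures in a test chosen after seeing the data (limma over 12 libraries, colonoids minus colonocytes, log2 scale). It differed for 4 members without TNF, against 54.8% of all genes, and for 3 with TNF in both arms, against 52.8%. Both member counts lie near those shares. Differences in cells, doses and times cannot be told apart from the difference in effect. Adamts15 was listed in colonocytes only through libraries given TGFB1 and BMP2. For Adamts15 the difference was -4.03 without and -4.41 with TNF, for Timp3 3.55 and 2.89, and for Plaur 0.82 and 1.01 (adjusted p from 1.297e-05 to 0.0124). For Mmp14 it was -0.49 without TNF (adjusted p = 0.0204).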

How the results depend on the processing

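Leaving out each library in turn gave 0 to 3 members called in the Smad4 knockout, 0 to 3 with TNF alone in colonocytes and 2 to 5 with TNF added to TGFB1 and BMP2 there. Over all genes these runs called 2709 to 4914, 399 to 1216 and 279 to 570. Total reads as the scaling left 1 member called with TNF alone in colonocytes (738 of all genes, against 728). With TNF added there, edgeR called 5 members (490 of all genes, against 472). Genes called over the whole table with TNF alone in colonoids went from 16 to 116 with DESeq2. With the replicate block, members called numbered 4 with TNF alone in colonocytes, 5 with TNF added to TGFB1 and BMP2 there and 1 with TNF added in colonoids, and all genes called went from 16 to 718 with TNF alone in colonoids, from 472 to 998 and from 20 to 254 with TNF added in colonocytes and colonoids, and from 1 to 30 for the colonocyte interaction. In the unpaired knockout the block added Timp2 (adjusted p = 0.0471). Beyond these and the calls named with their results, the block changed no member's call in the comparisons within a system. It was not run for the differences between systems.

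Log2 changes that turned sign had been uncalled. Mmp2 with TNF in colonocytes was -0.026 with total reads, and the Mmp14 difference between systems under TNF was 0.031 by edgeR. Leaving out 1 library, the latter ran from -0.21 to 0.27 (0.27, adjusted p = 0.00874, without the L46 colonoids given all 3 ligands), and the Timp2 differences from -0.79 to 0.057 without and -0.42 to 0.31 with TNF. With TNF in colonocytes Mmp2 ran from -0.017 to 0.033 and Timp2 from -0.085 to 0.0045. With TNF in colonoids Mmp14 ran from -0.032 to 0.046, Plaur from -0.20 to 0.078, Timp2 from -0.25 to 0.47 and Timp3 from -0.30 to 0.16. With TNF added in colonoids Plaur ran from -0.10 to 0.29 and Timp2 from -0.0097 to 0.89. Interactions ran in colonocytes from -0.14 to 0.060 for Ltbp2, -0.036 to 0.013 for Mmp14, -0.056 to 0.034 for Timp2 and -0.077 to 0.023 for Timp3, and in colonoids from -0.065 to 0.33 for Plaur and -0.11 to 0.79 for Timp2. Plaur in the knockout ran from -0.27 to 0.12. The cause was not tested.

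The Adamts15 rise in colonocytes rests on 8 to 13 reads per untreated library, and its log2 change ran from 1.29 to 4.70 over the alternatives. With 1 library left out that change ran from 2.67 to 2.88, so the wider span came from the other alternatives. Counts of reads cover counting error only.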
